A study of Mus musculus with 36 samples.

Results

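The neutrophil granule genes of this report encode proteins that developing neutrophils make, most of them stored in granules and the S100 proteins in the cytosol. Here 10 of the 48709 genes in the deposited table were examined by the stage of maturation at which each is known to be made. Elane and Mpo stood for the early stage (2 genes), Ngp, Camp, Ltf and Lcn2 for the middle stage (4 genes), and Mmp8, Retnlg, S100a8 and S100a9 for the late stage (4 genes). The stages come from textbook knowledge of granule formation and not from the values. All 10 genes were found in the table, and all 10 passed the filter of at least 0.1 RPKM in at least 3 libraries that 15806 genes passed.

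The libraries were RNA sequencing libraries of stria vascularis cells (SVCs) from CBA mice of the CBA/J strain, of either sex and without other treatment, and of 3 ages, 1, 9 and 26 months. This vascular epithelium lines the lateral wall of the cochlea, and the study describes SVCs as basal, intermediate and marginal cells, none of which makes neutrophil granules. There were 3 libraries (A, B and C) per age, each from a pool of about 1000 cells of 4 cochleae of 2 mice. No library was made from sorted neutrophils, so each value below is the share of a transcript in the RNA of a mixed pool, and fewer cells of a type cannot be told apart from less RNA per cell.

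Some libraries of an age were close to identical. Pairs of 26-month libraries differed by a median coefficient of variation of 0.891 to 1.36% over the 1000 most abundant genes. The 1-month libraries B and C differed by 1.23% and the 9-month libraries A and C by 1.48%, whereas all remaining pairs differed by 4.04 to 8.33%. A, B and C are separate samples in the labels. The study's methods give 3 biological replicates where they describe the collection of hair cells, but fewer, with technical repeats, where they describe the libraries. Every SD, n and p-value below therefore measures only the spread between these libraries, which may be technical. The values are RPKM, read numbers divided by the length of the transcript and by the size of the library, so levels can be compared between genes. The methods state a nominal read number per sample, but read counts per gene were not used here, so the reads behind each value are unknown and no counting interval is given.

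Neutrophils are made in the bone marrow, and their granules are filled in a fixed order. Promyelocytes make the azurophil granules, which hold myeloperoxidase and serine proteases. Myelocytes and metamyelocytes then make the specific granules, rich in lactoferrin, cathelicidin and lipocalin. Band and segmented cells make gelatinase granules and large amounts of the cytosolic S100 proteins. Transcription of each earlier set is switched off as the cell moves on, so circulating neutrophils carry the transcripts of the late sets and hardly any of the early ones. Factors of the C/EBP family and PU.1 drive many of these genes.

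The genes lie on 6 chromosomes, and the coordinates are those of GENCODE M21 on GRCm38. Elane is at chr10:79886247-79888215, Mpo at chr11:87793581-87804413, Lcn2 at chr2:32384633-32388252 and Retnlg at chr16:48872621-48874496. Mmp8 at chr9:7558456-7568485, Camp at chr9:109847379-109849617, Ngp at chr9:110419747-110423012 and Ltf at chr9:111019271-111042767 share a chromosome. Camp, Ngp and Ltf, all of the middle stage, are spaced with 570.1 kb between Camp and Ngp and 596.3 kb between Ngp and Ltf. S100a8 (chr3:90668978-90670035) and S100a9 (chr3:90692632-90695721), whose products form the heterodimer calprotectin, lie 22.6 kb apart. All 10 are protein coding. The gene Gm11505 overlaps Mpo on the other strand and was listed at 0 in 8 libraries and at 0.025 RPKM in 26-month library A.

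The 250 bases before the RefSeq start of 1 gene of each stage are shown because the stages parted in these data and the C/EBP family and PU.1 are their best known regulators. The windows are from GRCm38.p6, on the plus strand: Elane at chr10:79886062-79886311, Ngp at chr9:110419558-110419807 and S100a8 at chr3:90668821-90669070. Capitals mark the C/EBP letters TTNNGNAA and the PU.1 letters GAGGAA, searched on both strands, so that TTCCTC is the PU.1 motif on the other strand.
Elane: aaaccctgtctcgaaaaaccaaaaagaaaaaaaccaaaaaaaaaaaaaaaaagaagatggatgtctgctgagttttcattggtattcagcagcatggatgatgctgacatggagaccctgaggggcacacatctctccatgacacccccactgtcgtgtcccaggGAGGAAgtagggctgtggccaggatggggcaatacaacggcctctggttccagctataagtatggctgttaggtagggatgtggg
Ngp: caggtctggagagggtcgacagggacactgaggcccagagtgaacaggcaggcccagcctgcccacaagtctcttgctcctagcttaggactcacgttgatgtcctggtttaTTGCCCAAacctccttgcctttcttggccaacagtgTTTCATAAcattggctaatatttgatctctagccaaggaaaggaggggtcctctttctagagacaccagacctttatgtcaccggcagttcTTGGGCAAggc
S100a8: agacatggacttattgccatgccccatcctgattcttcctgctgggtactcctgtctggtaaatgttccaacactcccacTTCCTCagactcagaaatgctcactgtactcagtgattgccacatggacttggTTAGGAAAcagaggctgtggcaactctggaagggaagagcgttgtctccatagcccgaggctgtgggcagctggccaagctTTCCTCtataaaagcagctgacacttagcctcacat

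The early gene Elane held 1 PU.1 match, 85 bases before the start, and no C/EBP match. The middle gene Ngp held 3 C/EBP matches, 138, 102 and 11 bases before the start, and no PU.1 match. The late gene S100a8 held a C/EBP match at 117 bases and PU.1 matches at 170 and 36 bases before the start. These starts are those of RefSeq and lie past the GENCODE starts given above. The Ngp match at 11 bases and the S100a8 PU.1 match at 36 bases are therefore inside the GENCODE genes. RefSeq promoters of 250 bases before to 50 after the start were matched for all 10 genes. In these, the C/EBP letters were found in 7 of 10, against 40.7% of 32851 promoters, and the PU.1 letters in 6 of 10, against 28.3%. Neither early gene held the C/EBP letters, and Camp held neither motif. A match is a description of the letters and not a site.

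To see how the 3 stages differed with age, each gene was followed over the 9 libraries. All 10 genes fell between 1 and 9 months, to between 7.26% (S100a8) and 17.6% (Mpo) of their 1-month means. At 26 months the stages parted. The early genes Elane and Mpo stood at 112% and 131% of their 1-month means, the middle genes at 25.2 to 62.1%, and the late genes at 8.71 to 22.4%. The later its stage, the lower a set of genes stood in the oldest SVCs relative to young SVCs, although Mmp8 (22.4 ± 6.03%) and Camp (25.2 ± 1.47%), at the border of the late and middle stages, lay within 1 SD of each other. Means below are ± SD over 3 libraries.

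**Figure D1:**
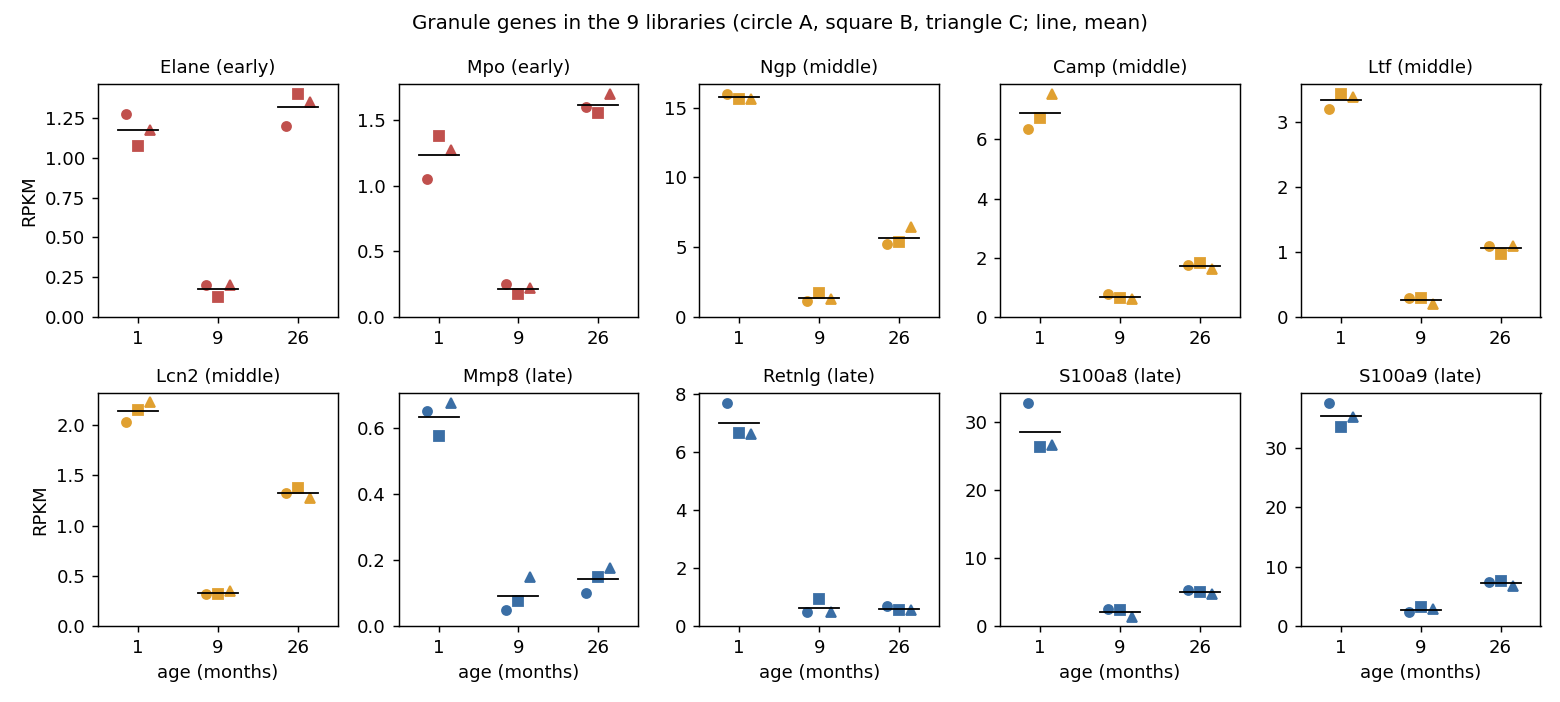
RPKM (y axis, linear, from 0 in each panel) of the 10 granule genes by age in months (x axis), with 1 point per library (circle A, square B, triangle C) and a line at the mean of 3. The 26-month points of Elane lie between 1.2 and 1.4 RPKM, level with those at 1 month, whereas those of Retnlg lie between 0.55 and 0.7 RPKM, level with those at 9 months.

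Among the early genes, Elane, which encodes neutrophil elastase, had 1.275, 1.075 and 1.175 RPKM in libraries A, B and C at 1 month, 0.2, 0.125 and 0.2 RPKM at 9 months, and 1.2, 1.4 and 1.35 RPKM at 26 months. All 9-month values were lower than any other, and the 1-month and 26-month values overlapped. Elane fell 4.67-fold from 1 to 9 months (log2 fold change −2.22, SE 0.127, limma adjusted p = 5.075e-07) and rose 5.19-fold from 9 to 26 months (2.38, SE 0.127, adjusted p = 6.295e-07). Between 26 and 1 month its log2 fold change was 0.15 (SE 0.127, limma adjusted p = 0.311).

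Mpo encodes myeloperoxidase, the peroxidase that marks azurophil granules. It had 1.05, 1.375 and 1.275 RPKM at 1 month, 0.25, 0.175 and 0.225 RPKM at 9 months, and 1.6, 1.55 and 1.7 RPKM at 26 months. The 3 values at 26 months lay above the 3 at 1 month. Mpo rose 5.44-fold from 9 to 26 months (limma adjusted p = 3.446e-07). Its log2 fold change of 0.37 between 26 and 1 month (SE 0.119, limma adjusted p = 0.0191) did not reach the fold threshold of 1. Most genes had positive values in this comparison, with a median log2 fold change of 0.24 over all 15806 genes, and relative to that median Elane stood at −0.09 and Mpo at 0.13. With quantile normalization the log2 fold changes of Elane and Mpo between 26 and 1 month were −0.21 and −1e-04.

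Among the middle genes, Ngp, a cystatin-like protein of mouse specific granules, was the most abundant. Its values were 15.975, 15.625 and 15.65 RPKM at 1 month, 1.175, 1.7 and 1.3 RPKM at 9 months, and 5.25, 5.375 and 6.45 RPKM at 26 months. The 3 ages did not overlap, and the oldest libraries lay between the other ages. Ngp fell 10.7-fold by 9 months (limma adjusted p = 4.435e-08), rose 3.91-fold from there (1.523e-06) and was 2.75-fold lower at 26 than at 1 month (limma adjusted p = 4.861e-06).

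Camp, which encodes the cathelicidin antimicrobial peptide, had 6.35, 6.725 and 7.525 RPKM at 1 month, 0.775, 0.65 and 0.6 RPKM at 9 months, and 1.75, 1.825 and 1.625 RPKM at 26 months. Ltf, which encodes the iron binder lactoferrin, had 3.2, 3.425 and 3.375 RPKM, then 0.3, 0.3 and 0.2 RPKM, then 1.1, 0.975 and 1.1 RPKM at the 3 ages in turn. Both had the order of ages seen for Ngp, with no overlap. Camp rose 2.37-fold and Ltf 3.18-fold from 9 to 26 months (limma adjusted p = 5.94e-06 and 3.002e-06), and they stood at 25.2 ± 1.47% and 31.8 ± 2.17% of their 1-month means.

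Lcn2 encodes lipocalin 2, which binds bacterial siderophores and which epithelial cells and macrophages are also known to make. It had 2.025, 2.15 and 2.225 RPKM at 1 month, 0.325, 0.325 and 0.35 RPKM at 9 months, and 1.325, 1.375 and 1.275 RPKM at 26 months. Its ages did not overlap either, and at 62.1 ± 2.34% of the 1-month mean it stood nearer to the early genes than the other middle genes did. The log2 fold change between 26 and 1 month was −0.65 (SE 0.0689, limma adjusted p = 2.436e-05), short of the fold threshold. With quantile normalization it was −1.01 and passed.

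Among the late genes, S100a9 and S100a8 had the highest levels of the 10 at 1 month. S100a8 had 32.775, 26.325 and 26.6 RPKM at 1 month, 2.475, 2.35 and 1.4 RPKM at 9 months, and 5.375, 5.075 and 4.8 RPKM at 26 months. S100a9 had 37.5, 33.5 and 35.225 RPKM, then 2.375, 3.175 and 2.85 RPKM, then 7.375, 7.55 and 6.825 RPKM. The neighbouring genes moved alike, with no overlap between ages. S100a8 fell 13.5-fold and S100a9 12.3-fold from 1 to 9 months, and they rose 2.45-fold and 2.55-fold from 9 to 26 months (limma adjusted p = 2.706e-04 and 3.378e-06). At 26 months they were still 5.51-fold and 4.83-fold lower than at 1 month (limma adjusted p = 2.376e-06 and 7.722e-08).

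Retnlg, a resistin-like gene of mouse neutrophils, had 7.675, 6.65 and 6.625 RPKM at 1 month, 0.5, 0.925 and 0.5 RPKM at 9 months, and 0.7, 0.575 and 0.55 RPKM at 26 months. The values at 9 and 26 months overlapped, and all lay far below those at 1 month. Its log2 fold change between 26 and 9 months was −0.02 (SE 0.193, limma adjusted p = 0.928). Library B at 9 months carried most of the spread, and without it the value was 0.23 (adjusted p = 0.0751). Retnlg was lower at 26 than at 1 month by the most of the 10 genes (log2 fold change −3.32, SE 0.193, limma adjusted p = 5.018e-07).

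Mmp8, which encodes the neutrophil collagenase, was the least abundant of the 10. It had 0.65, 0.575 and 0.675 RPKM at 1 month, 0.05, 0.075 and 0.15 RPKM at 9 months, and 0.1, 0.15 and 0.175 RPKM at 26 months. The later 2 ages overlapped and lay within a few steps of 0.025 RPKM, the resolution of the table. Mmp8 fell 3.91-fold from 1 to 9 months, was not called between 26 and 9 months (log2 fold change 0.36, SE 0.197, limma adjusted p = 0.153) and was 3.06-fold lower at 26 than at 1 month (limma adjusted p = 6.194e-05). The value between 26 and 9 months was 0.20 without library A of 9 months (adjusted p = 0.429) and 0.56 without library C of 9 months (adjusted p = 0.0201), and it stayed under the fold threshold. Folds come from log2(RPKM + 0.1), so they understate the change of genes as low as this one.

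**Figure D2:**
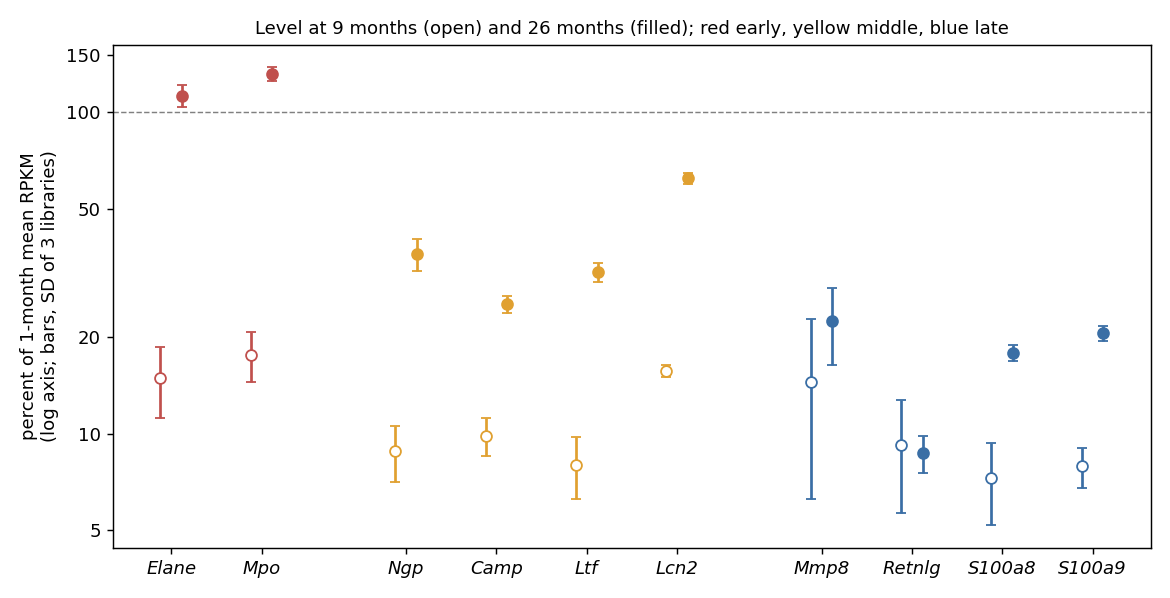
Level of each granule gene at 9 months (open circles) and 26 months (filled circles) as a percentage of its 1-month mean (y axis, log scale; bars are the SD of 3 libraries), ordered by stage (red early, yellow middle, blue late). At 9 months all 10 genes lie between 7.26 and 17.6%, and at 26 months the early genes lie above 100%, the middle genes at 25.2 to 62.1% and the late genes at 8.71 to 22.4%.

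The order of the levels changed with age. At 1 month S100a9 led at 35.4 ± 2.01 RPKM, followed by S100a8, Ngp, Retnlg, Camp, Ltf, Lcn2, Mpo, Elane and Mmp8. Retnlg and Camp overlapped there, as did Mpo and Elane. At 26 months S100a9 still led at 7.25 ± 0.378 RPKM, followed by Ngp, S100a8, Camp, Mpo, Lcn2, Elane, Ltf, Retnlg and Mmp8. Ngp and S100a8 overlapped at that age, as did Camp and Mpo, and Lcn2 and Elane. Retnlg lay above Elane in all 3 libraries at 1 month and below it in all 3 at 26 months.

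Over the comparison of 9 with 1 month, all 10 genes were called lower, against 1.47% of the 15806 genes tested. A call required an adjusted p from limma of 0.1 or less and a log2 fold change of 1 or more in either direction. Limma called 0 higher, also at an unadjusted p under 0.05, where 53.2% of all genes were higher and 16.4% lower, and 10.1% of all genes were called higher. In all 10 genes the 9-month values lay below the 1-month values without overlap, which 14.9% of all genes did (50.3% lay above). The log2 fold changes ran from −1.97 for Mmp8 to −3.75 for S100a8, with medians of −2.15 for the early, −3.21 for the middle and −3.46 for the late genes, beside 0.27 over all genes. The 1.47% depends on the scaling: the split of higher against lower calls was 1594 to 233 as deposited, 531 to 463 with quantile normalization, 748 to 395 with median of ratios scaling and 625 to 295 with the length trend removed. All 10 genes were called lower with each of these.

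Between 26 and 9 months, 8 of the 10 genes were called higher by limma, against 3.28% of all genes, and 0 were called lower, as 4.05% of all genes were. At an unadjusted p under 0.05, 8 were higher and 0 lower, against 28% and 32.7% of all genes. The same 8 genes were higher without overlap, as were 29% of all genes. The median log2 fold change was 2.41 for the 2 early, 1.69 for the 4 middle and 0.82 for the 4 late genes, beside −0.03 over all genes. Retnlg and Mmp8 were the genes not called. With a pseudocount of 1 RPKM, which compresses genes of low RPKM, 4 genes were called, Mpo, Ngp, S100a8 and S100a9.

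Between 26 and 1 month, 7 of the 10 genes were called lower by limma, against 2.51% of all genes, and 0 were called higher, as 9.93% of all genes were. At an unadjusted p under 0.05, 1 (Mpo) was higher and 8 were lower, against 51% and 20% of all genes. Those called lower were the 4 late genes and Ngp, Camp and Ltf of the middle genes. Without regard to the fold threshold, 8 genes lay below the 1-month values without overlap (21.7% of all genes did), and Mpo lay above them, as did 52.9% of all genes. The medians were 0.26 for the early, −1.51 for the middle and −2.37 for the late genes, beside 0.24 over all genes. The split of calls was 1569 higher to 396 lower as deposited and 802 to 742 with quantile normalization, under which 8 of the 10 genes were called lower. The splits were 927 to 692 with median of ratios scaling and 877 to 507 with the length trend removed, with 7 genes called lower in each.

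The 3 comparisons share libraries: the 9-month libraries enter both the fall and the rise. A call lower at 9 than at 1 month together with a call higher at 26 than at 9 months was found for 48 genes, 0.304% of those tested, and for 8 of the 10 granule genes. Of these, Elane, Mpo and Lcn2 were not called between 26 and 1 month, a pattern of 32 genes (0.202%), and Ngp, Camp, Ltf, S100a8 and S100a9 were still lower, a pattern of 13 genes (0.0822%). The granule genes thus made up 5 of these 13. Averaging near-identical libraries leaves 2 samples at 1 month, 2 at 9 months and 1 at 26 months. The lone 26-month sample is then assumed to vary like the other ages, and under that assumption the same genes were called, with limma adjusted p-values of at most 0.0268. A moderated F-test over the 3 ages called all 10 genes, with 86.3% of all genes called, and a call by it is shared by most genes.

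The stages were also set against each other within each library, since a difference within a library does not move when the whole library is scaled by 1 factor, apart from the pseudocount. The mean log2(RPKM + 0.1) of the late genes exceeded that of the early genes by 2.71 ± 0.144 at 1 month, 1.70 ± 0.385 at 9 months and 0.03 ± 0.0738 at 26 months. The single libraries were at 2.87, 2.60 and 2.66 at 1 month, 1.43, 2.14 and 1.53 at 9 months, and 0.11, 0.03 and −0.04 at 26 months. No library of an age overlapped with those of another. In the oldest SVCs the late and early sets were level by this mean of log values only, which weighs Mmp8, at 0.142 RPKM, like any other gene. In summed RPKM at 26 months the late genes had 13.1 and the early genes 2.93.

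The middle genes exceeded the early genes by 2.05 ± 0.0203, 1.15 ± 0.285 and 0.39 ± 0.0495 at the 3 ages in turn, again without overlap. The late genes exceeded the middle genes by 0.66 ± 0.147 at 1 month and 0.55 ± 0.135 at 9 months, where the libraries overlapped, and fell short of them by 0.36 at 26 months (−0.36 ± 0.0399). The stage sets were chosen with earlier results known, so these differences are given as values with no test. With a pseudocount of 1 RPKM the middle-to-early difference changed between 9 and 26 months by −0.12 in place of −0.76, and the late-to-middle difference by −0.38 in place of −0.91.

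**Figure D3:**
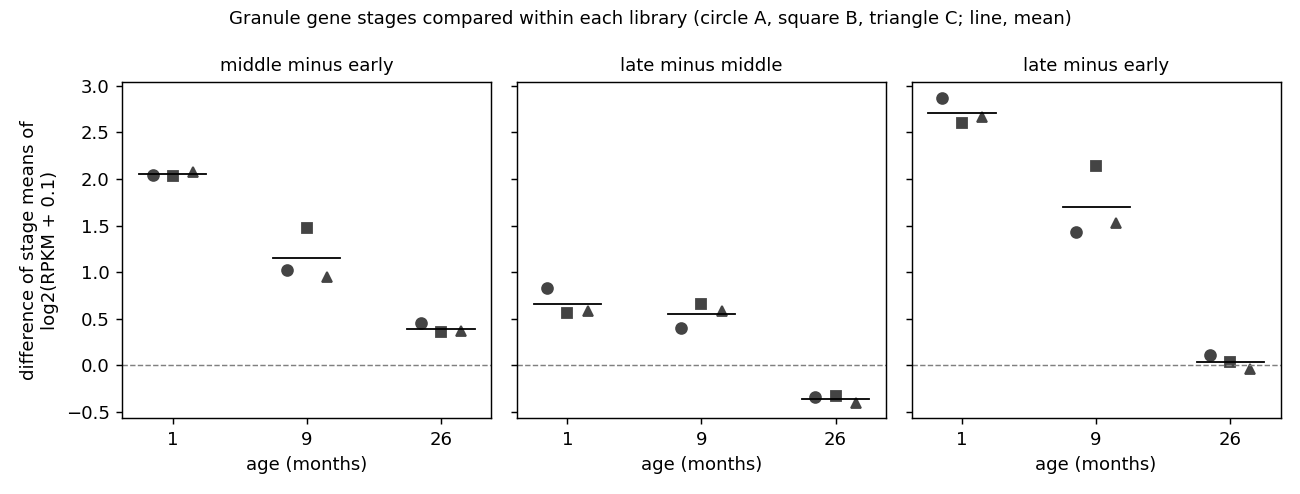
Differences between the stage means of log2(RPKM + 0.1) within each library (y axis) by age in months (x axis), for middle minus early, late minus middle and late minus early genes, with 1 point per library (circle A, square B, triangle C) and a line at the mean. Late minus early falls from 2.71 at 1 month through 1.70 at 9 months to 0.03 at 26 months, and late minus middle is below 0 in the 26-month libraries only.

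As shares of the summed RPKM of the 10 genes, the early genes took 2.37 ± 0.197% at 1 month, 4.62 ± 1.35% at 9 months and 11.4 ± 0.470% at 26 months. The middle genes took 27.6 ± 1.89%, 30.8 ± 0.615% and 38.0 ± 2.13%, and the late genes 70.1 ± 2.08%, 64.6 ± 1.83% and 50.7 ± 2.54%. The sum itself was 102 ± 5.73 RPKM at 1 month, 8.67 ± 1.03 RPKM at 9 months and 25.8 ± 0.0433 RPKM at 26 months. S100a8, S100a9 and Ngp make up most of these sums.

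Other genes of the same granules were taken from lists. Each list count here and below is to be read beside the shares of all 15806 genes called. From 1 to 9 months 10.1% were called higher and 1.47% lower. The shares were 3.28% and 4.05% from 9 to 26 months, and 9.93% and 2.51% between 26 and 1 month. Of 5 other azurophil granule genes, 4 passed the filter, 2 fell from 1 to 9 months and 3 rose from 9 to 26 months. Between 26 and 1 month limma called 0 of them, with 1 higher and 2 lower at an unadjusted p under 0.05, which 71% of all genes reached. Their summed RPKM was 1.08 at 1 month, 0.217 at 9 months and 1.02 at 26 months. Nkg7 was the largest part of the sum at 26 months. No member reached a mean of 1 RPKM at any age, and those below are named after their values were seen. The protease gene Ctsg and the ficolin gene Fcnb were listed at 0 in all 9-month libraries and had means of 0.242 and 0.283 RPKM at 1 month and 0.150 and 0.167 RPKM at 26 months, 62.1% and 58.8% of the 1-month means. Both passed the filter through the 1-month and 26-month libraries alone. They were the 2 genes that fell, and their fall and later rise had their direction fixed. The remaining rise was that of Nkg7. Nkg7, a granule membrane gene also known from killer lymphocytes, had 0.283, 0.1 and 0.458 RPKM, or 162% at 26 months. Ms4a3, a membrane gene of early myeloid cells that did not pass the filter, had 0.108, 0.025 and 0.0333 RPKM, or 30.8%. Prtn3, which encodes proteinase 3 and lies 3.07 kb from Elane, had 0.167, 0.0917 and 0.208 RPKM and was called in no comparison. At 26 months Prtn3 (125%) and Nkg7 thus had means above those at 1 month and the other 3 had means below.

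Of 8 other specific granule genes, 6 passed the filter, 4 fell from 1 to 9 months, 3 rose from 9 to 26 months and 1 was lower at 26 than at 1 month. Chil3, which encodes a chitinase-like lectin of mouse neutrophils and macrophages, had means of 1.57 ± 0.213, 0.0917 ± 0.0289 and 0.542 ± 0.138 RPKM at the 3 ages and was the gene called lower (log2 fold change −1.39, limma adjusted p = 8.036e-05). Its 26-month mean was 34.6% of that at 1 month, within the range of the middle genes. The others here, except Pglyrp1, are named after their values were seen. Olfm4 (27.8%) and Cd177 (44.4%) lay in that range too, while Itgb2l (68.8%), Hp (80.5%) and Pglyrp1 (183%) lay above it. Itgb2l was listed at 0 in all 9-month libraries, so its fall had its direction fixed. The summed RPKM of the list was 5.483 at 1 month, 2.242 at 9 months and 5.575 at 26 months. Pglyrp1, a peptidoglycan recognition protein, had 2.20, 1.80 and 4.02 RPKM and was called higher between 26 and 9 months (1.12, limma adjusted p = 3.479e-05). Between 9 months and 1 month, where all 10 granule genes fell, Pglyrp1 was not called. Olfm4 passed the filter through the 1-month libraries alone, and Bpi and Abca13 were listed at 0 in all libraries.

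Gelatinase granule genes were split. Of the 3 that passed the filter, 1 fell from 1 to 9 months and 2 rose from 9 to 26 months, and between 26 and 1 month 2 were higher and 1 was lower. Slc11a1, a metal ion transporter that macrophages also carry, had means of 0.467, 1.03 and 2.57 RPKM and was higher at 26 than at 1 month (log2 fold change 2.23, limma adjusted p = 1.536e-08). Mmp9, named after its values were seen because it encodes gelatinase B, the protein that gives these granules their name, had 0.558, 0.108 and 0.0833 RPKM. It was lower at 26 than at 1 month (−1.86, limma adjusted p = 7.554e-06) and stood at 14.9% of its 1-month mean, within the range of the late genes.

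Of 21 further genes of mature neutrophils, 16 passed the filter. From 1 to 9 months 5 fell and 1 rose, from 9 to 26 months 3 rose and 1 fell, and between 26 and 1 month 5 were higher and 3 lower. Fpr1 passed the filter through the 1-month libraries alone and Il1r2 and Clec4e through the 26-month libraries alone. Mrgpra2b, named after its values were seen, was listed at 0 in all 9-month libraries, so its fall had its direction fixed. Wfdc21, a whey acidic protein family gene of mouse neutrophils, had means of 1.37 ± 0.589, 0.158 ± 0.128 and 0.467 ± 0.170 RPKM and was lower at 26 than at 1 month (log2 fold change −1.34, limma adjusted p = 0.0147). Ly6g, the surface antigen used to sort mouse neutrophils and named after its values were seen, had 0.842, 0.1 and 0.117 RPKM and was also lower (−2.13, limma adjusted p = 1.505e-05). The third was G0s2, an inhibitor of fat breakdown that many cells express, with 73.2, 60.9 and 21.98 RPKM. Csf3r, the receptor of granulocyte colony-stimulating factor, went the other way, with 0.708, 0.558 and 1.54 RPKM (log2 fold change 1.03 between 26 and 1 month, limma adjusted p = 6.52e-05). Clec4d and Il1b, named after their values were seen, were also called higher (2.59 and 1.37, limma adjusted p = 5.535e-06 and 8.3e-04). Clec4d had 0, 0.225 and 0.517 RPKM, and Il1b had 0.0417, 0.0833 and 0.275 RPKM. Il1r2 and Clec4e were the remaining genes called higher. Mxd1, a repressor of the Myc network, had 3.31, 4.25 and 3.78 RPKM and was not called.

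**Figure D4:**
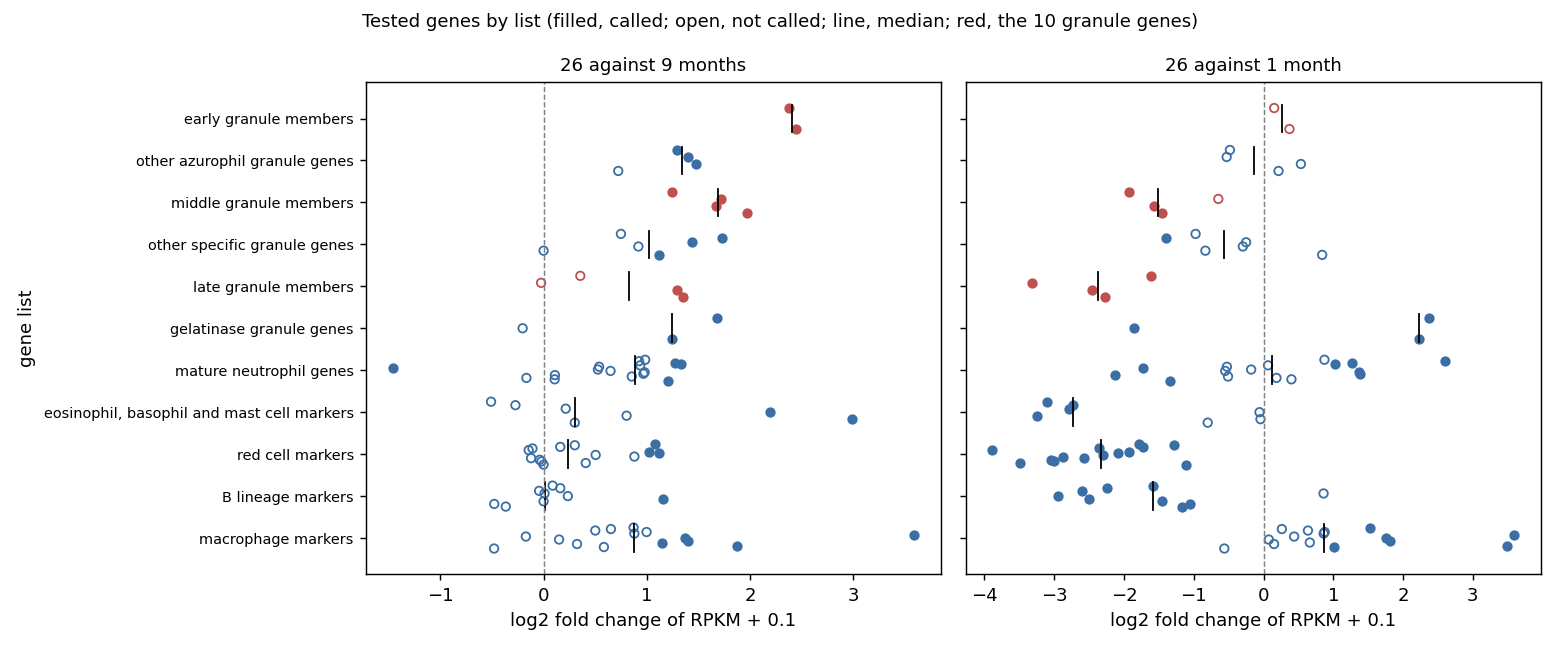
Log2 fold changes of RPKM + 0.1 (x axis) between 26 and 9 months (left) and between 26 and 1 month (right) for the tested genes of each list (rows), with called genes filled, others open, a line at the median, and the 10 granule genes in red. Between 26 and 1 month the medians of the granule genes lie at 0.26 for the early, −1.51 for the middle and −2.37 for the late genes, and those of the red cell and macrophage markers at −2.33 and 0.86.

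Genes that act with the granule proteins had other courses. Of 6 subunits of the phagocyte oxidase, 1 fell from 1 to 9 months, 3 rose from 9 to 26 months and 2 were higher at 26 than at 1 month. Rac2, the GTPase of the complex in blood cells, had 1.37, 0.35 and 1.23 RPKM, called lower and then higher, a course like that of the early genes. Cybb and Ncf4, a catalytic and a cytosolic subunit, had 0.808 and 0.7 RPKM at 1 month and 2.89 and 1.54 RPKM at 26 months. Cyba, the partner of Cybb in the membrane, was not called at 112, 87.9 and 120 RPKM.

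Of 7 transcription factors of granulocytes, 5 passed the filter, 1 rose from 1 to 9 months, 2 rose from 9 to 26 months and 2 were higher at 26 than at 1 month. Cebpb had 6.55, 17.4 and 41.2 RPKM and Cebpd 1.65, 1.55 and 5.39 RPKM. Spi1, which encodes PU.1, was not called at 0.975, 0.592 and 1.10 RPKM. Cebpe and Gfi1, factors of the myelocyte stage, did not pass the filter and had means of at most 0.0667 and 0.0083 RPKM, named after their values were seen.

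Of 7 receptors that bind granule proteins, 6 passed the filter, 2 rose from 1 to 9 months (Lrp1 and Cap1) and 1 fell from 9 to 26 months (Lrp1). Between 26 and 1 month limma called 0 of them, with 3 higher and 2 lower at an unadjusted p under 0.05, which 71% of all genes reached. Lrp2, or megalin, which takes up lipocalin 2 and lactoferrin and is a known marginal cell protein, had 350, 361 and 331 RPKM. Tlr4, a receptor of the S100a8 and S100a9 proteins, had 1.44, 2.06 and 1.95 RPKM. Lrp1 had 4.88, 12.1 and 5.68 RPKM and Cap1, known as a receptor of human resistin, 27.9, 56 and 48.7 RPKM.

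Of 10 inhibitors of granule proteases, 9 passed the filter. From 1 to 9 months 1 rose and 1 fell, from 9 to 26 months 5 rose and 1 fell, and 5 were higher at 26 than at 1 month. Serpina1b, an α1-antitrypsin gene of a near-identical family whose reads can be split between copies, had 0.9, 1.13 and 3.68 RPKM, and Timp3, an inhibitor of metalloproteinases, 64.5, 86.7 and 149 RPKM. A2m, a broad protease trap, had 0.375, 6.65 and 1.95 RPKM. Serpinb1a, the cytosolic inhibitor of elastase, had 1.27, 1.28 and 2.19 RPKM and was not called.

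Markers of other blood cells moved beside the granule genes, and their part in the results was not tested. Of 14 red cell markers that passed the filter, all 14 fell from 1 to 9 months, 3 rose from 9 to 26 months and all 14 were lower at 26 than at 1 month. Of these, 6 passed the filter through the 1-month libraries alone, so they had to be lower at the other ages, and 8 did not. Their summed RPKM ranged from 3074 to 3191 at 1 month, 366.85 to 457.05 at 9 months and 670 to 715 at 26 months, or 22.2% of the 1-month mean at 26 months. The heme synthesis gene Alas2 had 11.3, 1.46 and 3.20 RPKM. Klf1, an erythroid transcription factor named after its values were seen, had 2.15 RPKM at 1 month and 0.175 RPKM at 26 months. The red cell markers thus had the fall at 9 months and stood at 26 months where the late and middle genes stood, not where Elane and Mpo stood.

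Of 7 markers of eosinophils, basophils and mast cells that passed the filter, 7 fell from 1 to 9 months, 2 rose from 9 to 26 months and 4 were lower at 26 than at 1 month. Epx and Tpsb2 passed the filter through the 1-month libraries alone, so they had to be lower at the other ages. The other 5 were called lower at 9 months too. Of these, Mcpt8 and Prss34 passed the filter through the 1-month and 26-month libraries alone. They had to be lower at 9 months, and the 2 rises from 9 to 26 months were theirs. The eosinophil granule genes Prg2, Ear1 and Ear2 had 6.98, 1.17 and 1.63 RPKM at 1 month, 0.333, 0.108 and 0.217 RPKM at 9 months and 0.658, 0.05 and 0.167 RPKM at 26 months. The basophil protease genes Mcpt8 and Prss34, named after their values were seen, were listed at 0 in all 9-month libraries. They had 0.383 and 0.717 RPKM at 1 month and 0.358 and 0.7 RPKM at 26 months, a course like that of Elane and Mpo.

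B lineage markers had 9 members past the filter, of which 6 fell from 1 to 9 months, 1 rose from 9 to 26 months and 8 were lower at 26 than at 1 month. Igll1 passed through the 1-month libraries alone, so it had to be lower later. The summed RPKM ranged from 25.6 to 26.8 at 1 month, 7.25 to 7.73 at 9 months and 8.08 to 8.75 at 26 months. Ighm had 6.82, 0.667 and 0.8 RPKM. Of 9 proliferation markers past the filter, 5 fell from 1 to 9 months, 0 were called by limma between 26 and 9 months (5 were lower at an unadjusted p under 0.05, as were 32.7% of all genes) and 7 were lower at 26 than at 1 month, with sums of 5.63 to 6.2, 1.63 to 1.8 and 0.975 to 1.18 RPKM. The summed proliferation markers were lowest at 26 months, and their relation to the granule genes was not tested.

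Of 15 macrophage markers, 1 rose from 1 to 9 months, 5 rose from 9 to 26 months and 6 were higher at 26 than at 1 month. Their summed RPKM ranged from 190 to 196 at 1 month, 372 to 383 at 9 months and 1199 to 1217 at 26 months, most of it Lyz2, a lysozyme gene that neutrophils share, with 84.2, 258 and 946 RPKM. Of 7 monocyte markers, 4 passed the filter and limma called 0 in each comparison. At an unadjusted p under 0.05 there were 2 higher and 1 lower from 1 to 9 months, 2 higher from 9 to 26 months and 2 higher between 26 and 1 month. Of all genes, 69.5%, 60.7% and 71% reached that p in these comparisons. Ly6c2 had 2.75, 2.72 and 3.44 RPKM. Bone markers, whose sum was mostly Spp1, had 2 higher and 2 lower of 8 from 1 to 9 months, 2 lower from 9 to 26 months, and 1 higher and 3 lower between 26 and 1 month.

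Markers of the 3 cell types of the stria were summed as a check of the labelled tissue. Tyrp1, a pigment enzyme gene of intermediate cells named after its values were seen, did not pass the filter and was at 0.025 RPKM or less in every library. Summed RPKM of the marginal cell markers ranged from 2550 to 4144 over the 9 libraries, that of the intermediate cell markers from 4016 to 4348 and that of the basal cell markers from 424 to 942. From 1 to 9 months 1 of 7 marginal, 1 of 7 intermediate and 2 of 6 basal cell markers rose, against 10.1% of all genes. From 9 to 26 months 2 marginal and 4 basal cell markers fell (4.05% of all genes) and 1 intermediate cell marker rose (3.28%). Between 26 and 1 month 1 intermediate cell marker was higher (9.93% of all genes) and no other was called. Spiral ligament fibrocyte markers had 6 of 8 higher and 1 lower from 1 to 9 months, 6 lower from 9 to 26 months, and 2 higher and 1 lower between 26 and 1 month. Endothelial markers had 3 of 8 higher from 1 to 9 months, 0 called by limma from 9 to 26 months (2 higher and 2 lower at an unadjusted p under 0.05, against 28% and 32.7% of all genes) and 4 higher between 26 and 1 month.

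Among the 10 genes, likeness over the 9 libraries was high within each stage. Pearson's r on log2(RPKM + 0.1), given as a description over 9 libraries of 3 ages, was 0.986 between Elane and Mpo, 0.927 to 0.991 among the middle genes and 0.918 to 0.987 among the late genes. Across stages it was 0.348 between Mpo and Retnlg and 0.991 between Camp and S100a9, so Camp was as close to S100a9 as to any gene of its own stage. Lcn2, at 0.940 with Elane, was the middle gene closest to the early ones.

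Among the 10 genes whose profile was most like the mean profile of the 8 granule genes that averaged 1 RPKM or more (all but Elane and Mmp8), out of 10338 candidates, were Paqr5, Tspan1, Tax1bp3, Ctse, Pcbp1, Alas2, Ndufa9, Ube2l6 and Glrx5. Their Pearson's r ranged from 0.982 (Glrx5) to 0.995 (Paqr5) over 9 libraries. The measure ignores the size of a change: Paqr5 had means of 62.7, 36.2 and 47.6 RPKM at the 3 ages and Tspan1 168, 78.4 and 107 RPKM. Of those named, Alas2 and Ctse, an aspartic protease gene with 3.66, 1.39 and 2.06 RPKM, fell the most in proportion.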

How the data were processed

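Libraries were prepared by SMARTer amplification and Nextera and read on a HiSeq instrument. Cells were dissociated with trypsin per the labels and with collagenase per the study's methods. The authors mapped paired reads to mm10 (GRCm38) with CLC Genomics Workbench, version not given in the sources used here, and deposited RPKM for 48709 genes. The 36 repository entries are 4 runs of each of 9 libraries, and the table holds 1 value per library in steps of 0.025 RPKM, so runs were not used as replicates. The labels' age of 26 months was used where a notes sheet writes 28. Columns of the authors' own fold changes and p-values were not used.

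From these, log2(RPKM + 0.1) was computed for the 15806 genes that reached 0.1 RPKM in 3 or more libraries, and limma 3.58.1 (R 4.3.3) was fitted with a mean-variance trend to all 9 libraries. Calls needed an adjusted p (Benjamini-Hochberg, over all genes tested) of 0.1 or less and a log2 fold change of 1 or more in either direction, and the F-test over 3 ages the same adjusted p. The methods state a nominal sequencing depth, but the depth of each library as the files show it is unknown, since read counts were not used. Coordinates are from GENCODE M21, which matched 48349 genes, and promoters from RefSeq. Tables and plots used Python 3.11.15, pandas 2.3.3, numpy 2.4.6 and matplotlib 3.10.9.

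The 10 genes and all gene lists were chosen with earlier results of these data known. The text names all 10 genes, of each list up to 4 members that had the smallest F-test p among those reaching a mean of 1 RPKM at some age, and the 10 genes most alike in profile; others are named as chosen after their values were seen. A few genes the rule selects are not reported here. Itgam and Ahsp were not analysed here. Alternatives were other pseudocounts and filters, 3 other scalings, limma without trend or with array weights, 2-age fits, the library letter as a block, near-identical libraries averaged, other thresholds and leaving out each library.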

Additional observations from a re-analysis of the deposited data

How the results depend on the processing

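Across 23 alternatives, 834 of 867 recomputed values kept their direction and their side of the threshold, or moved by less than the spread between libraries. Counts of called genes had a wider margin, under which 7 in place of 10 was taken as unchanged. A pseudocount of 1 RPKM, which compresses low values, left 4 of 10 genes called between 26 and 9 months in place of 8. It left 7 in place of 10 between 9 months and 1 month, where Elane, Mpo and Mmp8 lost their calls. Between 26 months and 1 month it left 6 in place of 7, while the F-test still called all 10. It moved the late-minus-middle differences to −0.38 between 26 and 9 months, −0.34 between 9 months and 1 month and −0.72 between 26 months and 1 month, and the middle-minus-early differences to −0.12, −1.13 and −1.25. With a pseudocount of 0.025 RPKM the middle-minus-early differences were −0.98 (26 against 9 months) and −1.71 (26 against 1 month), and with quantile normalization the latter was −1.59. With the length trend removed, the late-minus-middle difference was 0.0030 for 9 against 1 month, in place of −0.11, and −0.90 for 26 against 1 month. The cause of these shifts in scaling was not tested.

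Retnlg, at −0.02 between 26 and 9 months, was at 0.0394 with quantile normalization, 0.0094 with median of ratios scaling, 0.0144 with the length trend removed and 0.24 with array weights, and ranged from −0.15 to 0.23 with 1 library left out. Mmp8, at 0.36, ranged from 0.20 to 0.56 with 1 library left out and was at 0.56 with array weights (limma adjusted p = 0.0093), under the fold threshold in each. Between 26 and 1 month, quantile normalization put Elane at −0.21 and Mpo at −1e-04, and median of ratios scaling put Elane at −0.0901. Without a fold threshold 9 of 10 genes were called there. The counts of called granule genes were 8, 10 and 7 whichever library was left out. With near-identical libraries averaged the counts were the same, but this leaves 1 sample at 26 months, assumed to vary like the other ages, and the F-test called 9973 of all genes in place of 13641. A pseudocount of 1 RPKM called 311, 453 and 564 of all genes in the comparisons of the oldest with the middle age, the middle with the youngest and the oldest with the youngest, in place of 1159, 1827 and 1965. The counts without a fold threshold were 9923, 11394 and 11674. A filter of 1 RPKM left 9 of the 10 genes, without Mmp8, and called 639, 1218 and 1255 of all genes. For 9 against 1 month, 994 genes were called with quantile normalization, 1143 with median of ratios scaling and 920 with the length trend removed.

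The library letter did not pair the samples: the deviations of equal letters correlated between −0.0512 and 0.228, and libraries were closest to their own letter in 5 of 18 cases. With the letter as a block the counts were 8, 10 and 7 of the granule genes and 10 by the F-test. Levels near 0.1 RPKM, as those of Mmp8 at 9 and 26 months, rest on a few steps of 0.025 RPKM.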
